A study of Mus musculus with 3 samples.

Results

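Neutrophil progenitors were examined within the LK gate of mouse bone marrow. They were taken as LK cells with at least 50 Elane UMIs (unique molecular identifiers, the counted mRNA molecules) and fewer than 5 UMIs over the monocyte genes F13a1, Ms4a6c and Ly86 together, among cells with at least 200 detected genes and at most 10% mitochondrial UMIs. The rule took 625 of 3464 LK cells, or 18.0% (95% exact binomial interval 16.8 to 19.4%), out of 8824 cells in the 3 libraries. Because measured UMIs chose the cells, the levels of Elane and of the 3 monocyte genes are a description of the rule, and every other gene of the same cells is described without a test. The 18.0% is a share of what the LK sort kept, and was 5.43% when the 3 monocyte genes had to be at 0 UMIs.

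Mouse marrow was taken from hips, spines, tibiae and femora and was profiled as 1 droplet library each (10x Genomics 3' chemistry, version 2) of LK cells, LSK cells and total bone marrow (TBM). The labels give no genotype, strain, age, sex, treatment or number of animals. The antibodies named for the enrichment of lineage-negative cells were Ter119, Ly-6C, Ly-6G, CD11b, CD45R, CD8a and CD5, so cells carrying Ly-6G, Ly-6C or CD11b protein would be lost from LK and LSK. LK and LSK are the usual names for lineage-negative Kit-positive cells without and with Sca-1 selection, although the labels do not spell out the gates.

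LK held 3560 barcodes, of which 3464 passed, with 50037534 UMIs and a median of 13698.5 per cell. LSK had 1070 passing cells (median 9711 UMIs) and TBM 4290 (median 3409 UMIs), against 3441 LK, 1070 LSK and 3984 TBM cells stated in the labels. With 1 library per sort there was no replicate, so no test between samples was possible, and all intervals below cover counting error only. LK shared 25 barcodes with TBM, 4 of them neutrophil progenitors, and 6 with LSK, none of them neutrophil progenitors. Scrublet called 3 LK cells doublets, or 0.0866%, too few for the caller to have worked. All 3 were neutrophil progenitors, and they were kept. Their removal took the log2 ratio of Car1 between neutrophil progenitors and other LK cells to -5.0, against -4.05 with them.

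Neutrophils and monocytes arise from shared granulocyte-monocyte progenitors. On the neutrophil side, the granules are filled in waves: the primary (azurophil) granules with myeloperoxidase and serine proteases at the promyelocyte stage, then the secondary and tertiary granules with lactoferrin, lipocalin and metalloproteases, and last the calprotectin-rich cytosol of mature cells. The transcription factors Cebpa, Spi1 (PU.1), Gfi1 and Cebpe are known to drive the neutrophil path, and Irf8 and Klf4 the monocyte path.

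Several genes that mark these cells are neighbours in the genome. In the mm10 (GRCm38) build, with gene spans from GENCODE, Elane is at chr10:79886247-79888215, next to Prtn3 at chr10:79874476-79883174 and near Prss57 at chr10:79781474-79790961. Ctsg is at chr14:56099881-56102574, Cebpe at chr14:54710360-54712174, Ms4a3 at chr19:11629496-11640851 and Mpo at chr11:87793581-87804413. The promoters of 4 of the granule genes are shown because their transcripts were high together in the same cells. Each runs 5' to 3' on the gene's strand from 250 bases before to 50 bases after the RefSeq start (RefSeq, GRCm38.p6). The RefSeq and GENCODE starts differ for Prtn3, whose window lies inside its GENCODE span, and by less for Elane. Capitals mark matches, on either strand, to the C/EBP pattern TTNNGNAA or the PU.1 pattern GAGGAA. The windows are chr10:79886062-79886361, plus strand, for Elane, chr10:79879417-79879716, plus strand, for Prtn3, chr14:56102525-56102824, minus strand, for Ctsg, and chr19:11640802-11641101, minus strand, for Ms4a3.
Elane: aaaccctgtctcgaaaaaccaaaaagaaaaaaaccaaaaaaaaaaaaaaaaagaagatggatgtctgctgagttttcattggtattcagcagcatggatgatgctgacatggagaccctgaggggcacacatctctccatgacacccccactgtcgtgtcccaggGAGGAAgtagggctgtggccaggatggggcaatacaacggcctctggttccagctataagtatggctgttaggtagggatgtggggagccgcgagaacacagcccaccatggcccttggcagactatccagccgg
Prtn3: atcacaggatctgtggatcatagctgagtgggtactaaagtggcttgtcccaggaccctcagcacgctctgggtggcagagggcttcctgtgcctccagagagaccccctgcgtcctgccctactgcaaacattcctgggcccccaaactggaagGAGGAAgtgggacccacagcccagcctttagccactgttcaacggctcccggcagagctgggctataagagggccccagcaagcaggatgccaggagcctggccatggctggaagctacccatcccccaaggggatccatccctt
Ctsg: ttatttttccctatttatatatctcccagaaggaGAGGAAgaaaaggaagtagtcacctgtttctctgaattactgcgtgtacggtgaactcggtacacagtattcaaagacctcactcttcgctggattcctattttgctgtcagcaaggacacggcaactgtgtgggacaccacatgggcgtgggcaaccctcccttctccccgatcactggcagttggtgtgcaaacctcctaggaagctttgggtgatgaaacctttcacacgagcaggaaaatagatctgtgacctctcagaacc
Ms4a3: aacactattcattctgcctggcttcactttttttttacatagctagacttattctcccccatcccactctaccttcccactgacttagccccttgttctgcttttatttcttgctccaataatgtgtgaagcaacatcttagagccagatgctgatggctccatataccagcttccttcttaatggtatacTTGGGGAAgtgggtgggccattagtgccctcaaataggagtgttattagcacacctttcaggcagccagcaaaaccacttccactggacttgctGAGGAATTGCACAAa

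All 4 windows held the PU.1 pattern, with its first base at position -85 for Elane, -95 for Prtn3, -216 for Ctsg and 35 for Ms4a3, counted from the RefSeq start as position 0. The 2 matches to the C/EBP pattern in these windows were both in Ms4a3, at -59 on the gene's strand and at 41 on the other strand, directly after the PU.1 match and without overlap. Of all 32851 RefSeq mouse promoters of this length, 28.3% held the PU.1 pattern and 40.7% the C/EBP pattern. The Myb pattern AACNG, found in the Elane, Prtn3 and Ctsg windows, was in 80.3% of all promoters, and the Runx pattern TGTGGT, found in that of Ctsg, in 16.8%. A promoter was matched for 14 of the 18 genes on the primary granule list, so the 4 shown are a part of it. Of the others, Mpo, Ctsc, Bpi and Cd63 held the PU.1 pattern. Cst7, Srgn, Lyz2, Nkg7, Fcnb and Lyz1 did not. The C/EBP pattern was in Cst7, Lyz2, Fcnb, Cd63, Lyz1 and a promoter of Srgn, and not in Mpo, Ctsc, Nkg7 or Bpi.

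Transcripts of 4 primary granule proteins, the rule gene among them, were added up in each cell. Elane, Mpo, Ctsg and Prtn3 together took a median of 3.92% of a neutrophil progenitor's UMIs (lowest 0.943%, highest 6.87%) and 0.387% of another LK cell's. In the summed counts of neutrophil progenitors, Elane ranked 1 and Mpo 2 of all genes, ahead of every ribosomal protein gene. The plot of LK cells by their Elane and monocyte-gene UMIs shows the cells chosen by the rule.

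**Figure D1:**
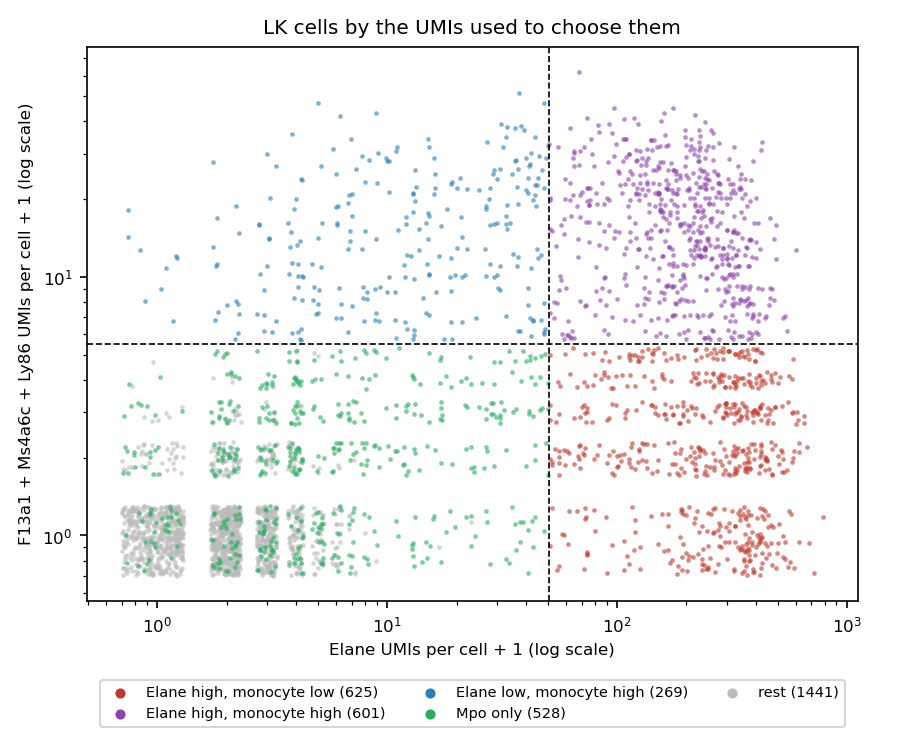
Each point is 1 LK cell, placed by its Elane UMIs plus 1 (x, log scale) and its UMIs over F13a1, Ms4a6c and Ly86 plus 1 (y, log scale), with small random offsets to separate equal counts. Dashed lines are the limits of the rule: the 625 neutrophil progenitors (red) lie lower right, the 601 cells over both limits upper right, the 269 monocyte-side cells upper left, and cells with at least 20 Mpo UMIs but neither property (528) and the rest (1441) lower left.

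Per cell, the serine protease genes were abundant in neutrophil progenitors. Elane (neutrophil elastase), the gene that chose the cells, had a lowest, median and highest count of 50, 276 and 783 UMIs in neutrophil progenitors and 0, 2 and 598 in other LK cells. Mpo (myeloperoxidase, which makes hypochlorous acid) had 52, 276 and 527 UMIs in neutrophil progenitors and 0, 18 and 504 in other LK cells. Ctsg (cathepsin G) had 13, 119 and 354 in neutrophil progenitors and 0, 7 and 261 in other LK cells. These 3 genes were found in every neutrophil progenitor, and for each the 2 sets of cells overlapped. Prtn3 (proteinase 3) had 7, 95 and 283 UMIs in neutrophil progenitors and 0, 10 and 232 in other LK cells. Ms4a3, a membrane protein whose gene marks granulocyte-monocyte progenitors, had 1, 32 and 105 UMIs in neutrophil progenitors and 0, 1 and 68 in other LK cells. Prss57 (neutrophil serine protease 4) was much less abundant, with 0, 6 and 22 UMIs in neutrophil progenitors and 0, 0 and 18 in other LK cells. It was detected in 95.8% of neutrophil progenitors and 38.5% of other LK cells. With cells thinned to 5000 UMIs, these shares were 77.1% of neutrophil progenitors and 23.1% of other LK cells. Cells under 5000 UMIs were left out of all thinned values, among them 1 neutrophil progenitor and 240 of the 2839 other LK cells.

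Cells that should lack these genes held low counts of them, which set the background. In the 184 LK cells with at least 20 UMIs of the erythroid gene Car1 and fewer than 50 of Elane (median 14105.5 UMIs), a set chosen after the counts were seen, Elane averaged 1.83 (1.64 to 2.03) UMIs per cell, Mpo 3.83 (3.55 to 4.13), Ctsg 1.17 (1.02 to 1.34), Ms4a3 0.266 (0.197 to 0.352) and Prss57 0.12 (0.0749 to 0.181). In neutrophil progenitors (median 19593 UMIs) the means were 275 (274 to 277) for Elane and 271 (270.1 to 273) for Mpo. They were 121 (120.2 to 122) for Ctsg, 34.7 (34.2 to 35.1) for Ms4a3 and 6.97 (6.76 to 7.18) for Prss57. Mpo, Ctsg, Ms4a3 and Prss57 were far above that background. For Elane the difference was fixed in advance, because the limit of 50 UMIs chose both sets. The markers named for this cell type, Elane, Ms4a3, Prss57 and Ctsg, were all at a higher level in these cells than in any of the 4 other sets of LK cells described below, and Elane was used by the rule. The transcripts do not test commitment, which is a statement about fate.

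Across the primary granule list, levels of most genes were higher in neutrophil progenitors than in other LK cells, whose median depth was 11625 UMIs. Levels are UMIs of a gene per 1000000 UMIs (CPM) over the summed cells, and ratios are log2 of neutrophil progenitors over other LK cells with a 95% exact interval. Of the 15 measured genes besides Elane (at least 20 UMIs over both sets), 9 were at least 2-fold higher and 0 at least 2-fold lower, with a median log2 ratio of 1.25. Over all 12402 genes measured, 2.08% were at least 2-fold higher, 10.7% at least 2-fold lower, and the median was -0.18. The rule used these cells, so nothing is read from the count. Elane stood at 13899.8 CPM in neutrophil progenitors and 3613 CPM in other LK cells (1.94 [1.93 to 1.95]), and Mpo at 13701 CPM in neutrophil progenitors and 5771 CPM in other LK cells (1.25 [1.24 to 1.26]). Ctsg was at 6113 CPM in neutrophil progenitors and 2292 CPM in other LK cells (1.42 [1.40 to 1.43]), and Prtn3 at 5024 CPM in neutrophil progenitors and 2535 CPM in other LK cells (0.99 [0.97 to 1.0]), just under 2-fold. Ms4a3 (1749 CPM in neutrophil progenitors and 453 CPM in other LK cells) and Prss57 (352 CPM in neutrophil progenitors and 84.2 CPM in other LK cells) had larger ratios, of 1.95 (1.92 to 1.98) and 2.06 (2.0 to 2.13).

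Among the other genes of the list, some pack or restrain the proteases. Srgn (serglycin, the proteoglycan core that binds granule proteases) was at 2280.3 CPM in neutrophil progenitors and 1079.8 CPM in other LK cells (1.08 [1.06 to 1.10]), Cst7 (the cathepsin inhibitor cystatin F) at 442 CPM in neutrophil progenitors and 170.1 CPM in other LK cells (1.38 [1.33 to 1.43]) and Cd63, a tetraspanin of granule membranes, at 815 CPM in neutrophil progenitors and 226 CPM in other LK cells (1.85 [1.81 to 1.89]). Nkg7, a granule membrane protein also known from cytotoxic lymphocytes, was at 1370.5 CPM in neutrophil progenitors and 532 CPM in other LK cells (1.37 [1.34 to 1.40]). Serpinb1a, an inhibitor of elastase and cathepsin G, was at 622 CPM in neutrophil progenitors and 355 CPM in other LK cells (0.81 [0.77 to 0.85]). Ctsc and Lyz2 were among those below the level in other LK cells. Ctsc, the peptidase that activates these proteases, was at 42.6 CPM in neutrophil progenitors and 61.8 CPM in other LK cells (-0.54 [-0.68 to -0.40]), and Lyz2 (lysozyme) at 191 CPM in neutrophil progenitors and 272 CPM in other LK cells (-0.51 [-0.58 to -0.45]). Fcnb (ficolin B), a late primary granule gene, was high in ratio (2.22 [1.74 to 2.71]) but low in level, at 7.67 CPM in neutrophil progenitors and 1.65 CPM in other LK cells.

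Among the transcription factors, Cebpe and Gfi1 were the 2 of 19 measured list genes at least 2-fold higher in neutrophil progenitors, and Egr1, Klf4 and Irf8 the 3 at least 2-fold lower. The list's median log2 ratio was 0.31. Cebpe, needed for secondary granules, was at 235 CPM in neutrophil progenitors and 21.9 CPM in other LK cells (3.42 [3.31 to 3.54]), and had at least 1 UMI in 88.2% of neutrophil progenitors and 14.2% of other LK cells. Thinned to 5000 UMIs, these shares were 58.3% of neutrophil progenitors and 7.39% of other LK cells, with 1.1% of the Car1-high cells. Gfi1, a repressor needed for neutrophil formation, was at 66.8 CPM in neutrophil progenitors and 15.2 CPM in other LK cells (2.13 [1.98 to 2.29]). Irf8, the monocyte-path factor, was at 86.3 CPM in neutrophil progenitors and 317 CPM in other LK cells (-1.88 [-1.97 to -1.79]), and Klf4 at 5.33 CPM in neutrophil progenitors and 24.4 CPM in other LK cells (-2.19 [-2.57 to -1.83]). The general myeloid factors differed less: Cebpa was at 171 CPM in neutrophil progenitors and 115 CPM in other LK cells (0.57 [0.49 to 0.64]), Spi1 at 308 CPM in neutrophil progenitors and 228 CPM in other LK cells (0.43 [0.38 to 0.49]) and Myb at 299.8 CPM in neutrophil progenitors and 208 CPM in other LK cells (0.53 [0.47 to 0.59]).

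The 12 largest ratios upward, among genes with at least 200 UMIs and without the rule genes, were led by products of later neutrophil stages. Wfdc21, a small antiprotease-like protein of maturing neutrophils, was at 32.6 CPM in neutrophil progenitors and 0.823 CPM in other LK cells (5.31 [4.78 to 5.88]). S100a8, a calprotectin subunit, was at 120.4 CPM in neutrophil progenitors and 8.13 CPM in other LK cells (3.89 [3.71 to 4.07]). Pglyrp1, the peptidoglycan recognition protein of secondary granules, was at 275 CPM in neutrophil progenitors and 30.9 CPM in other LK cells (3.15 [3.06 to 3.25]), and was detected in 86.7% of neutrophil progenitors and 22.8% of other LK cells. Of the enzymes among the 12, the fatty acyl reductase gene Far2 had a ratio of 3.33 (2.86 to 3.81), the glucocorticoid-activating dehydrogenase gene Hsd11b1 of 3.22 (2.98 to 3.47), the lactosylceramide synthase gene B4galt6 of 2.65 (2.39 to 2.92) and the chondroitin sulfotransferase gene Chst13 of 2.52 (2.34 to 2.70). Hsd11b1 was at 45.7 CPM in neutrophil progenitors and 4.91 CPM in other LK cells, and Chst13 at 56.8 CPM in neutrophil progenitors and 9.91 CPM in other LK cells. The others were Cebpe, the filamin-binding gene Rflnb (2.60 [2.26 to 2.96]), the C-type lectin receptor gene Clec4a2 (2.39 [2.18 to 2.61]), the siderophore-binding gene Lcn2 (2.24 [1.99 to 2.49]) and the chitinase-like gene Chil1 (2.13 [1.82 to 2.45]).

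The largest ratios downward were of genes near absent from neutrophil progenitors, several of them known from other lineages. The lymphoid DNA polymerase gene Dntt had 3 UMIs in neutrophil progenitors and 810 in other LK cells, a log2 ratio of -6.47 (-8.75 to -4.92). The class II invariant chain gene Cd74 had 6 UMIs in neutrophil progenitors and 380 in other LK cells (-4.38 [-5.84 to -3.24]), and the adhesion gene Esam, found on stem cells, had 4 in neutrophil progenitors and 236 in other LK cells (-4.28 [-6.17 to -2.90]). Slc25a21 (2 UMIs in neutrophil progenitors, -5.07 [-8.13 to -3.20]), Trim47, Trib2, Rab27b, Gm15915, Atp1b2, Ms4a4c and Samd14 were also among them, with Samd14 the least negative of these 8 at -4.36 (-5.32 to -3.55).

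Secondary and tertiary granule genes split into a detected and a near-absent group. Of 13 measured genes, 6 were at least 2-fold higher in neutrophil progenitors, 1 (Mmp8, with 3 UMIs there) at least 2-fold lower, and the median was 0.60. Over the 7 genes with at least 200 UMIs the median was 2.0. Wfdc21, Pglyrp1, Lcn2, the leukotriene receptor gene Ltb4r1 (95.5 CPM in neutrophil progenitors and 23.9 CPM in other LK cells, 2.0 [1.87 to 2.12]), Anxa1 (1.19 [1.13 to 1.26]) and Lrg1 (3.53 [2.50 to 4.70]) were the higher ones. The best known secondary granule genes were near 0: Camp (cathelicidin) had 12 UMIs over all 625 neutrophil progenitors, Ngp 12, Chil3 8 and Ltf (lactoferrin) 2. Among mature neutrophil genes, 4 of 9 measured reached 2-fold upward and 1 downward (Il1b, with 3 UMIs in neutrophil progenitors), and the median was 0.73. Beside S100a8 the higher ones were G0s2, a lipase inhibitor (7.51 CPM in neutrophil progenitors and 0.929 CPM in other LK cells, 3.01 [2.44 to 3.62]), the amplifying receptor gene Trem1 (1.43 [1.02 to 1.85]) and Msrb1 (1.06 [1.0 to 1.11]). S100a9, the partner subunit of S100a8, was at 3.8 CPM in neutrophil progenitors and 2.71 CPM in other LK cells, so S100a8 mRNA was present in neutrophil progenitors with little of its partner's.

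Receptor genes gave few markers of the neutrophil progenitors. Of 18 measured cytokine receptor genes 0 were at least 2-fold higher and 9 at least 2-fold lower (median -1.01). Csf3r, the receptor for the neutrophil growth factor G-CSF, was at 39.6 CPM in neutrophil progenitors and 28.3 CPM in other LK cells (0.48 [0.33 to 0.64]), and Csf2ra, of the GM-CSF receptor, at 72.1 CPM in neutrophil progenitors and 51 CPM in other LK cells (0.50 [0.38 to 0.61]). Ifngr1, of the interferon gamma receptor, came closest to 2-fold higher, at 350.5 CPM in neutrophil progenitors and 178 CPM in other LK cells (0.98 [0.93 to 1.04]). Kit, the gate's own receptor, was at 30.4 CPM in neutrophil progenitors and 35.9 CPM in other LK cells (-0.24 [-0.41 to -0.07]), Flt3 at 7.84 CPM in neutrophil progenitors and 37.6 CPM in other LK cells (-2.26 [-2.57 to -1.96]) and the monocyte growth factor receptor gene Csf1r at 10.4 CPM in neutrophil progenitors and 25.4 CPM in other LK cells (-1.28 [-1.56 to -1.02]), or -0.67 with equal weight for each cell.

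Some adhesion and Fc receptor genes were higher in neutrophil progenitors than in all other LK cells together. The Fc gamma receptor genes Fcgr3 (252 CPM in neutrophil progenitors and 83 CPM in other LK cells, 1.60 [1.53 to 1.67]) and Fcgr2b (1.07 [0.94 to 1.19]), the inhibitory lectin gene Clec12a (553 CPM in neutrophil progenitors and 259.5 CPM in other LK cells, 1.09 [1.05 to 1.14]) and Ceacam1 (1.17 [0.72 to 1.61]) were the 4 of 21 measured adhesion and homing genes at least 2-fold higher. Ccr2, which brings monocytes out of marrow, was the 1 at least 2-fold lower (-1.50 [-1.84 to -1.18]), and the list's median was -0.25. Ceacam1 (0.34) and Fcgr2b (0.85) were under 2-fold with the monocyte genes at 0 UMIs, as was Clec12a (0.89). The progenitor gene Cd34 was at 175 CPM in neutrophil progenitors and 288 CPM in other LK cells (-0.72 [-0.79 to -0.65]). Against only the LK cells high in both Elane and monocyte genes, described below, 1 of 21 genes of the list was at least 2-fold higher. In that comparison 3 were at least 2-fold lower, and the median was -0.26.

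Erythroid, megakaryocyte, stem, dendritic cell and monocyte lists were lower in the median in neutrophil progenitors, while mast cell, lymphoid and eosinophil lists held genes of both directions or higher ones. Summed over each list, erythroid genes had 162 CPM in neutrophil progenitors and 1327 CPM in other LK cells (median log2 ratio -3.55, 14 of 16 at least 2-fold lower), and megakaryocyte genes 373 CPM in neutrophil progenitors and 667 CPM in other LK cells (-2.20, 10 of 13 lower), with Ppbp at 0 UMIs in neutrophil progenitors. Stem and multipotent progenitor genes summed to 312 CPM in neutrophil progenitors and 707 CPM in other LK cells (-2.12, 13 of 16 lower). Dendritic cell genes had a median of -1.62 (7 of 11 lower), with Ly6d at 0 UMIs, and lymphoid genes of 0.24 over the 7 measured. The lymphoid list summed to 1454 CPM in neutrophil progenitors and 731 CPM in other LK cells, most of it Nkg7, which is also on the primary granule list. Monocyte genes other than the 3 of the rule summed to 1599 CPM in neutrophil progenitors and 1784 CPM in other LK cells (median -0.86, 6 of 14 lower), led downward by the protease gene Ctss (1.86 CPM in neutrophil progenitors and 28.7 CPM in other LK cells, -3.95 [-4.61 to -3.36]). Ly6c2, the gene of the Ly-6C antigen, went the other way at 892 CPM in neutrophil progenitors and 623 CPM in other LK cells (0.52 [0.49 to 0.55]).

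Mast cell and basophil genes were divided. Hdc (histidine decarboxylase) was at 188 CPM in neutrophil progenitors and 58.4 CPM in other LK cells (1.69 [1.60 to 1.77]) and had a UMI in 90.7% of neutrophil progenitors and 30.3% of other LK cells. Mcpt8, a basophil protease gene, was at 98.2 CPM in neutrophil progenitors and 47.6 CPM in other LK cells (1.04 [0.94 to 1.15]), and Cpa3, a mast cell peptidase gene, at 212 CPM in neutrophil progenitors and 199 CPM in other LK cells (0.09 [0.03 to 0.16]). Mcpt8 had a UMI in 63.8% and Cpa3 in 44.2% of neutrophil progenitors. Other genes of the list were at or near 0 there: Ms4a2 had 19 UMIs, and Gzmb, Prss34 and Il1rl1 had 0. In other LK cells Gzmb had 158 UMIs, Prss34 41 and Il1rl1 100. Taking 3 counts as the limit a 0 allows, these 3 genes were at least 17.3-fold, 4.49-fold and 11.0-fold lower in neutrophil progenitors. Of the 13 measured genes 3 were at least 2-fold higher (Hdc, Mcpt8 and Srgn) and 7 lower, and the median was -1.57 with genes at 0 entered at that limit. The list summed to 2924 CPM in neutrophil progenitors and 1735 CPM in other LK cells, most of it Srgn, also on the primary granule list. The eosinophil granule genes Prg2 (4.30 [3.63 to 5.04]) and Prg3 (2.94 [2.48 to 3.41]) were higher in sum, and the median over the 3 eosinophil genes measured was 2.94. A single cell held 83.1% of the Prg2 and 44.7% of the Prg3 UMIs of neutrophil progenitors, and both ratios turned negative (-0.73 for Prg2 and -0.021 for Prg3) with the monocyte genes at 0 UMIs.

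Among general processes, genes of the secretory pathway stood somewhat higher in neutrophil progenitors than in all other LK cells, and immediate early genes lower. The 32 genes of protein folding and transport in the endoplasmic reticulum (ER) had a median of 0.51, none of them at 2-fold, with the chaperone gene Calr at 2918 CPM in neutrophil progenitors and 1614 CPM in other LK cells (0.85 [0.84 to 0.87]) and Sdf2l1 at 554 CPM in neutrophil progenitors and 296 CPM in other LK cells (0.90 [0.86 to 0.95]). Alas1, the rate-limiting enzyme of heme synthesis outside red cells, was at 563 CPM in neutrophil progenitors and 199 CPM in other LK cells (1.50 [1.45 to 1.55]), while the 11 heme genes had a median of -0.23. Glycolysis genes were at 0.30, respiratory chain genes at 0.12, NADPH oxidase genes at 0.19, lysosome and granule targeting genes at 0.10, nucleolus genes at -0.02 and cholesterol synthesis genes at -0.07. Immediate early genes were lower, with 12 of 16 at least 2-fold and a median of -1.14, led by Egr1 (24.4 CPM in neutrophil progenitors and 130.4 CPM in other LK cells, -2.42 [-2.59 to -2.25]). Interferon response genes were lower too (-0.86, 7 of 17). With median-of-ratios size factors in place of total UMIs, the median over all genes was -0.00, against -0.18 with total UMIs, and small list medians are read against that shift.

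In list medians of summed counts, S phase genes stood nearly level and G2/M and G1 genes lower. The median of G2/M UMIs per cell at equal depth was higher than in all other LK cells together, and about level with the nearest sets. The 28 S phase genes had a median of -0.08 and the 28 G2/M genes of -0.55, with none at 2-fold in either list. G1 cyclin and kinase inhibitor genes had a median of -0.45, with 2 of 13 at least 2-fold lower. At 5000 UMIs per cell, S phase genes took a median of 20 UMIs (quartiles 14 and 26) in neutrophil progenitors and 21 (12 and 29) in other LK cells, and G2/M genes 7 (4 and 11) in neutrophil progenitors and 5 (3 and 11.5) in other LK cells. In the mixed, monocyte-side and Mpo-only cells described below, the G2/M medians were 7, 7 and 6 UMIs, and it was 4 in the rest. The S phase medians were 23, 24 and 21 in the same 3 sets and 17 in the rest. The proliferation gene Mki67 had a UMI in 8.97% of thinned neutrophil progenitors and 13.7% of thinned other LK cells, and in 27.2% of neutrophil progenitors and 28.2% of other LK cells before thinning.

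**Figure D2:**
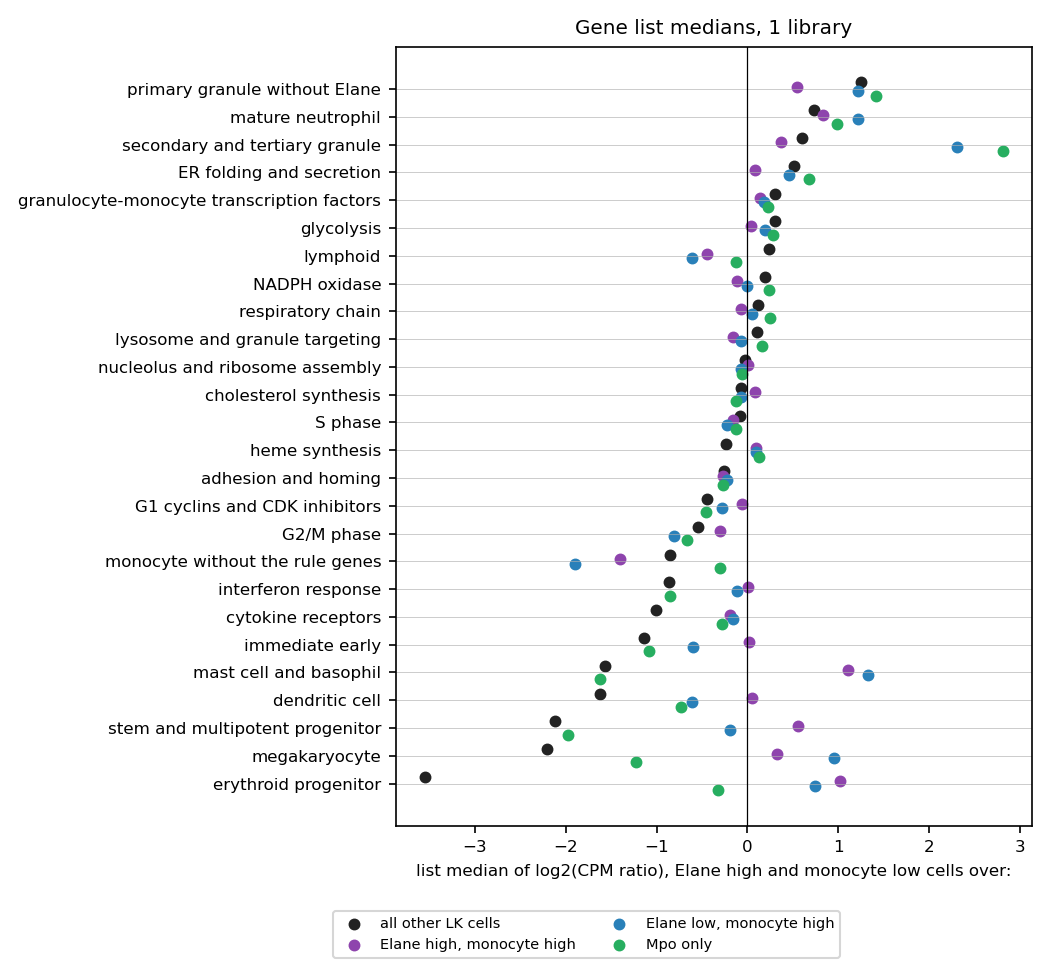
Median log2 CPM ratio of each gene list (x axis), neutrophil progenitors over all other LK cells (black), over cells high in Elane and monocyte genes (purple), over monocyte-side cells (blue) and over Mpo-only cells (green), from 1 library. Primary granule genes stand at 1.25, 0.55, 1.21 and 1.41 in these comparisons, and stem genes at -2.12, 0.56, -0.19 and -1.97.

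The other LK cells include every lineage, so the neutrophil progenitors were also set against their nearest neighbours: 601 cells with at least 50 Elane UMIs and 5 or more monocyte-gene UMIs (mixed cells below), 269 monocyte-side cells with fewer than 50 Elane and 5 or more monocyte-gene UMIs, and 528 Mpo-only cells with at least 20 Mpo UMIs and neither property. Their median depths were 20853, 17883 and 12740 UMIs, against 19593 in neutrophil progenitors. Each of these sets is also fixed by Elane or the monocyte genes.

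Against mixed cells, differences were large in Cebpe, S100a8, Cd63, Pglyrp1 and Cpa3, and small in Mpo and Prtn3. Over 11048 genes, 2.91% were at least 2-fold higher in neutrophil progenitors and 2.63% at least 2-fold lower, with a median of 0.01. Of 15 primary granule genes 2 (Prss57 and Cd63) were at least 2-fold higher, 1 (Ctsc) lower, and the median was 0.55. Prtn3 was at 5024 CPM in neutrophil progenitors and 4953 CPM in mixed cells (0.02 [0.00 to 0.04]), and Mpo at 13701 CPM in neutrophil progenitors and 11329.9 CPM in mixed cells (0.27 [0.26 to 0.28]). Cd63 was at 815 CPM in neutrophil progenitors and 146 CPM in mixed cells (2.48 [2.41 to 2.55]), Cebpe at 235 CPM in neutrophil progenitors and 41.2 CPM in mixed cells (2.52 [2.38 to 2.65]), Pglyrp1 at 275 CPM in neutrophil progenitors and 51.7 CPM in mixed cells (2.41 [2.29 to 2.53]) and S100a8 at 120.4 CPM in neutrophil progenitors and 17.9 CPM in mixed cells (2.75 [2.55 to 2.96]). Gfi1 was at 66.8 CPM in neutrophil progenitors and 22.6 CPM in mixed cells (1.57 [1.37 to 1.76]). Irf8 (86.3 CPM in neutrophil progenitors, 584 CPM in mixed cells, -2.76 [-2.85 to -2.67]) and Ctss (-4.40 [-5.07 to -3.80]) were the other way round. Cebpa (0.22 [0.13 to 0.31]) and Spi1 (0.07 [0.01 to 0.14]) stood close to level.

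Mixed cells also had more Ly6c2, at 892 CPM in neutrophil progenitors and 1697 CPM in mixed cells (-0.93 [-0.96 to -0.90]), more of the antiprotease gene Slpi (-1.13 [-1.18 to -1.07]) and more Ctsc (-1.09 [-1.25 to -0.94]). Cpa3 was higher in neutrophil progenitors, at 212 CPM against 29.9 CPM in mixed cells (2.83 [2.67 to 2.99]), as was Hdc (1.33 [1.22 to 1.44]). The monocyte list without the rule genes had 10 of 14 genes at least 2-fold lower in neutrophil progenitors (median -1.40). Lists of some other lineages stood higher in neutrophil progenitors: erythroid genes summed to 162 CPM in neutrophil progenitors and 89.9 CPM in mixed cells (median 1.01), and mast cell and basophil genes had 5 of 8 genes at least 2-fold higher (median 1.10). For Car1, 3 cells held 76.9% of the UMIs of all neutrophil progenitors. The 209 neutrophil progenitors with the lowest Elane share held 1274 of the 2001 UMIs of the erythroid list. All 3 cells called doublets were neutrophil progenitors, and the lists were not set against mixed cells without them. The ER, immediate early and interferon response lists stood about level with mixed cells, with medians of 0.08, 0.01 and 0.00. Of 16 immediate early genes 1 was at least 2-fold lower in neutrophil progenitors, and no heme synthesis gene had a ratio above 0.40.

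Monocyte-side cells had less of most granule transcripts. Over 10604 genes, 4.19% were at least 2-fold higher in neutrophil progenitors and 4.46% at least 2-fold lower (median -0.09). Of 15 primary granule genes, 10 reached 2-fold upward and 0 downward, with a median of 1.21. Ms4a3 was at 1749 CPM in neutrophil progenitors and 211 CPM in monocyte-side cells (3.05 [2.96 to 3.14]), while Mpo was at 13701 CPM in neutrophil progenitors and 6497 CPM in monocyte-side cells (1.08 [1.06 to 1.09]) and Prtn3 at 5024 CPM in neutrophil progenitors and 2949 CPM in monocyte-side cells (0.77 [0.74 to 0.79]). Fcgr3 (3.04 [2.80 to 3.29]), Ifngr1 (1.69 [1.56 to 1.82]) and Ly6c2 (1.80 [1.72 to 1.89]) were higher in neutrophil progenitors, and Flt3 (-3.44 [-3.78 to -3.12]) and Irf8 (-2.91 [-3.01 to -2.81]) lower. G2/M genes had 9 of 28 at least 2-fold lower in neutrophil progenitors (median -0.81).

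Mpo-only cells had lower granule transcripts and more of several progenitor genes. Over 10865 genes, 3.13% were at least 2-fold higher in neutrophil progenitors and 7.68% at least 2-fold lower (median -0.16). Of 15 primary granule genes, 10 were at least 2-fold higher (median 1.41). Cebpa was about level, at 171 CPM in neutrophil progenitors and 181 CPM in Mpo-only cells (-0.08 [-0.18 to 0.02]), while Cebpe (235 CPM in neutrophil progenitors and 31 CPM in Mpo-only cells, 2.92 [2.72 to 3.13]) and Gfi1 (1.68 [1.43 to 1.94]) were higher in neutrophil progenitors. Cpa3 (212 CPM in neutrophil progenitors, 652 CPM in Mpo-only cells, -1.62 [-1.69 to -1.55]), Cd34 (-1.45 [-1.53 to -1.37]) and Flt3 (-2.99 [-3.32 to -2.67]) were lower. Stem genes had 12 of 15 at least 2-fold lower (median -1.97). Against the remaining 1441 LK cells (median 7506 UMIs), 5.53% of 11599 genes were at least 2-fold higher in neutrophil progenitors and 17.7% at least 2-fold lower.

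**Figure D3:**
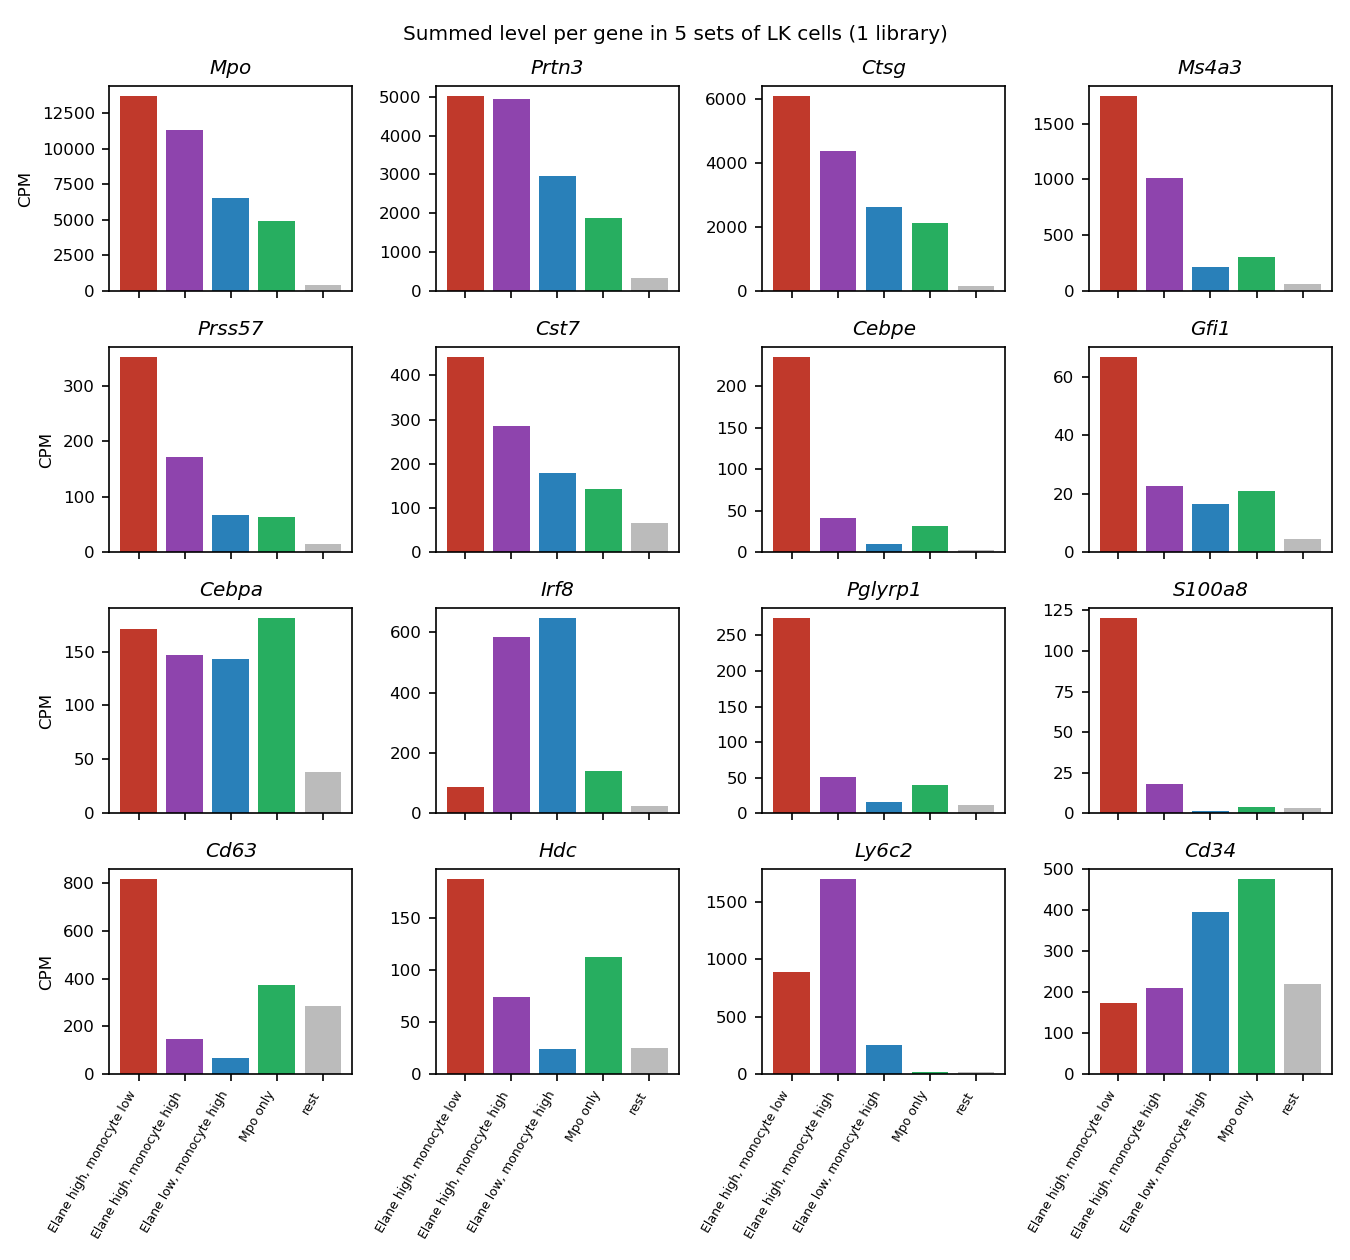
Level of 16 genes (y axis, CPM over summed cells) in the 5 sets of LK cells, neutrophil progenitors at the left in red, from 1 library with no error bars. Cebpe is at 235 CPM in neutrophil progenitors and at most 41.2 CPM in the other sets, Prtn3 is about level between neutrophil progenitors and mixed cells, and Irf8 is highest in monocyte-side cells.

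Cells just inside and just outside the limits of the rule were set side by side. The 25 neutrophil progenitors with 50 to 59 Elane UMIs had 858 CPM of Ms4a3, 3558 of Ctsg, 202 of Cebpe, 58.4 of Gfi1 and 762 of Cpa3, and the 25 cells just outside with 40 to 49 Elane UMIs had 709 CPM of Ms4a3, 3509 of Ctsg, 144 of Cebpe, 29.9 of Gfi1 and 769 of Cpa3. Along the monocyte limit, the 188 neutrophil progenitors with no UMI of the 3 monocyte genes had 303 CPM of Cebpe and 29.96 of Irf8. The 153 with 3 or 4 such UMIs had 148 CPM of Cebpe and 169 of Irf8, and the 74 cells just outside, with 5 or 6, had 98.1 CPM of Cebpe and 303 of Irf8. Ctsg stood at 6482, 5742 and 5369 CPM in the same 3 groups, a smaller relative change than in Cebpe or Irf8.

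Within the neutrophil progenitors, the Elane share of a cell's UMIs ran from 0.210% to 3.48%. The cells were split by it, after the data were seen, into 3 parts of 209, 208 and 208 cells (Elane-low, Elane-middle and Elane-high) with median Elane shares of 0.643%, 1.38% and 2.02% and median depths of 17719, 20408.5 and 20009.5 UMIs. Values below run from Elane-low to Elane-high. Ratios are log2 of Elane-high over Elane-low, and describe cells ordered by 1 of their own genes. Over 9467 genes, 2.19% were at least 2-fold higher in Elane-high cells and 4.48% at least 2-fold lower (median -0.14).

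Ms4a3, Ctsg, Prtn3 and Mpo were higher in Elane-high cells, by less than Elane itself. Of the 15 primary granule genes besides Elane 5 were at least 2-fold higher and 0 at least 2-fold lower (median 0.92), with Lyz2 the lowest in ratio at -0.64 (-0.79 to -0.50). Ms4a3 was at 1052, 1788 and 2382 CPM (1.18 [1.13 to 1.23]), Ctsg at 4442, 6182 and 7653 CPM (0.78 [0.76 to 0.81]), Prtn3 at 3716, 5004 and 6307 CPM (0.76 [0.73 to 0.79]) and Mpo at 10920.1, 14440.5 and 15618 CPM (0.52 [0.50 to 0.53]), beside Elane at 1.66 (1.64 to 1.68). Later genes were concentrated in Elane-high cells: S100a8 was at 4.27, 53.3 and 302 CPM (6.14 [5.46 to 6.93]), Wfdc21 at 0.754, 20.6 and 75.6 CPM (6.65 [5.09 to 8.93]), Clec4a2 at 3.52, 28.8 and 89.9 CPM (4.68 [3.91 to 5.56]) and Fcnb at 0.503, 2.81 and 19.6 CPM (5.29 [3.39 to 8.36]). Ly6c2 was at 238, 919.5 and 1495 CPM (2.65 [2.55 to 2.75]), Pglyrp1 at 105, 262 and 451 CPM (2.10 [1.94 to 2.25]) and the glutathione transferase gene Gstm1 at 433, 937 and 1322 CPM (1.61 [1.53 to 1.69]).

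Progenitor genes ran the other way, while Cebpe, Gfi1, Cebpa and Myb differed by less than 2-fold. Cpa3 was at 440.5, 161 and 45.6 CPM (-3.27 [-3.50 to -3.05]), Cd34 at 273, 162 and 92.1 CPM (-1.57 [-1.74 to -1.40]), Gata2, a stem and mast cell factor, at 45.2, 14 and 4.61 CPM (-3.30 [-4.06 to -2.61]), Flt3 at 15.3, 6.55 and 1.94 CPM (-2.98 [-4.26 to -1.91]) and Irf8 at 125, 78.6 and 56.7 CPM (-1.14 [-1.37 to -0.91]). Cebpe stood higher in Elane-middle cells than at either end, at 204, 260.1 and 240.0 CPM (0.23 [0.10 to 0.37]). Cebpa was at 205, 163 and 147 CPM (-0.48 [-0.63 to -0.33]), Gfi1 at 53.8, 67.4 and 78.8 CPM (0.55 [0.30 to 0.81]) and Myb at 296, 299.6 and 303 CPM (0.03 [-0.08 to 0.15]). The ribosome assembly gene Npm1 was at 2280.4, 1955 and 1683 CPM (-0.44 [-0.48 to -0.39]), and Top2a, of G2/M, at 78.1, 60.6 and 59.4 CPM (-0.40 [-0.64 to -0.15]). Hdc differed little, at 199, 196 and 168 CPM (-0.25 [-0.40 to -0.10]). Car1 was at 61.8, 4.68 and 5.82 CPM, and 3 of the Elane-low cells held 90.7% of the Car1 UMIs of that part.

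**Figure D4:**
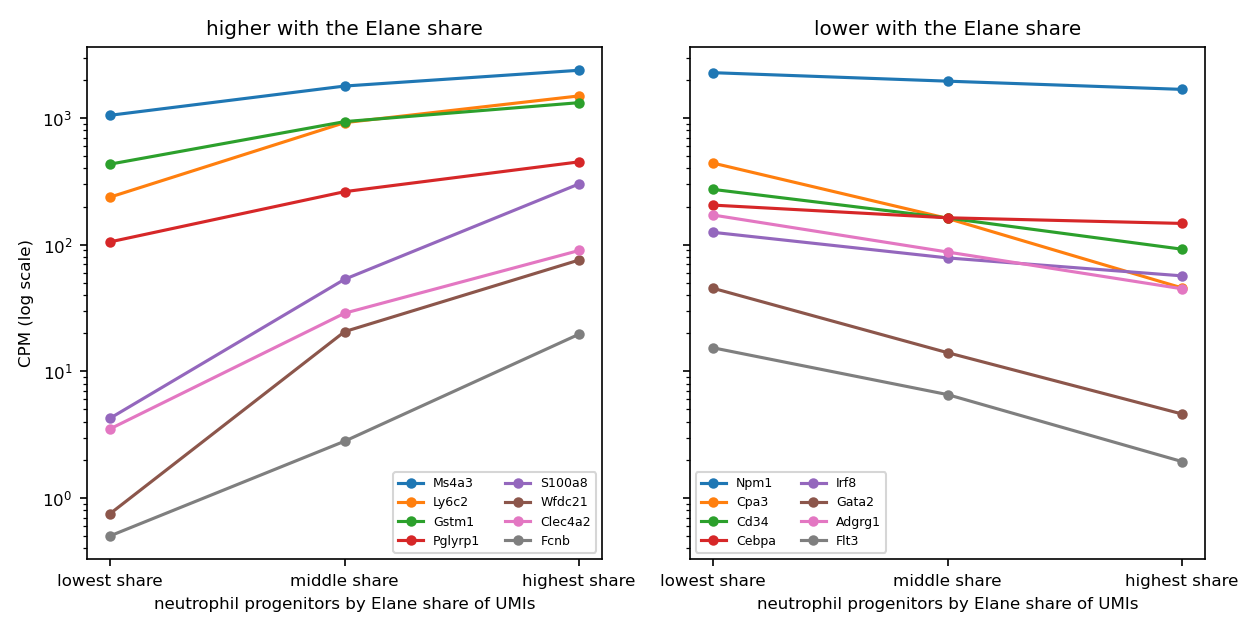
Level of 16 genes (y axis, CPM over summed cells, log scale) in 3 parts of the neutrophil progenitors by Elane share of UMIs (x axis, lowest to highest; 209, 208 and 208 cells), from 1 library. The left panel shows genes higher with the Elane share, S100a8 at 4.27, 53.3 and 302 CPM, and the right panel genes lower with it, Cpa3 at 440.5, 161 and 45.6 CPM.

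The order of single cells was also described by correlation. Each cell was thinned to 5000 UMIs, which left 624 neutrophil progenitors deep enough, and genes seen in at least 20% of them were taken. Elane, Xist and mitochondrial, ribosomal protein and antigen receptor genes were left out, so the ranking does not cover them. Among the 2699 genes kept, Spearman's rho with Elane was highest for Ctsg (0.62), Gstm1 (0.59), Ms4a3 (0.59), Ly6c2 (0.59), the actin-binding gene Tmsb4x (0.58), Srgn (0.58), Mpo (0.55), Clec12a (0.54), S100a11 (0.53) and Nkg7 (0.52). It was lowest for the histone variant gene H2afy (-0.37), Cd34 (-0.36), Cpa3 (-0.35), the elongation factor gene Eef1g (-0.33), Npm1 (-0.32) and Adgrg1 (-0.29), with Tmsb10, Eef1a1, Tuba1b and Tmem176b completing the 10 lowest. The median over all 2699 genes was -0.02, 27 were above 0.3 and 5 below -0.3. All points share 1 library and 1 depth, and the counts of each cell sum to 5000.

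Of the later genes, S100a8 had its high counts in few cells. Pglyrp1 had at least 1 UMI in 86.7% of neutrophil progenitors and Lcn2 in 37.3%. S100a8 had at least 1 UMI in 209 of 625 neutrophil progenitors (33.4%) and 5.07% of other LK cells, against 3.26% of the Car1-high cells. At 5000 UMIs these shares were 17% of neutrophil progenitors, 2.46% of other LK cells and 1.1% of Car1-high cells. The 10% of neutrophil progenitors with the most S100a8 held 84% of its UMIs, 14 cells had 20 or more, and the highest had 156. Of the 14, 12 were Elane-high and 0 Elane-low. Wfdc21 was seen in 158 cells (25.3%), with a highest count of 19. Cebpe was spread more evenly, its top 10% of cells holding 29%, and Cpa3 lay between, with 44 cells of 20 or more UMIs holding 58.1% of its UMIs.

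The same rule found few cells in the other sorts: 56 of 4290 TBM cells (1.31%, 0.988 to 1.69%) and 7 of 1070 LSK cells (0.654%, 0.263 to 1.34%). Their median depths were 17491.5 UMIs in TBM, 19593 in LK and 27300 in LSK. The TBM cells are called TBM neutrophil progenitors below because they met the rule, and the name does not state their stage. Cd34 had a UMI in 14.3% of them and 86.9% of LK neutrophil progenitors, and Kit in 33.9% and 44%. By its name TBM was not lineage-depleted, although the labels give 1 protocol for all 3 sorts, so sort, library and cell stage cannot be told apart in what follows.

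TBM neutrophil progenitors had far more mRNA of later stages than LK ones. Over 5411 genes with at least 200 UMIs in both together, a minimum set after the counts were seen, 2.79% were at least 2-fold higher in TBM than in LK neutrophil progenitors, 13.1% were at least 2-fold lower and the median was -0.30. Of 10 measured secondary and tertiary granule genes 9 were at least 2-fold higher (median 4.63), and of 14 primary granule genes besides Elane 3 were higher and 1 lower (median 0.39). The later genes led. Per cell, S100a8 had a lowest, median and highest count of 26, 356 and 3640 UMIs in TBM neutrophil progenitors and 0, 0 and 156 in LK ones, so the 2 sets overlapped through few LK cells. Its level was 40647 CPM in TBM neutrophil progenitors and 120.4 CPM in LK neutrophil progenitors (8.40 [8.33 to 8.48]), and that of S100a9 was 24918 CPM in TBM neutrophil progenitors and 3.8 CPM in LK neutrophil progenitors (12.68 [12.27 to 13.13]). Fcnb was at 1399 CPM in TBM neutrophil progenitors and 7.67 CPM in LK neutrophil progenitors (7.51 [7.21 to 7.83]) and Wfdc21 at 1655 CPM in TBM neutrophil progenitors and 32.6 CPM in LK neutrophil progenitors (5.67 [5.51 to 5.83]). Camp was at 15724 CPM in TBM neutrophil progenitors and 0.969 CPM in LK neutrophil progenitors (13.99 [13.18 to 14.94]), with 2, 20 and 1749 UMIs per TBM cell.

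The background of these genes was also higher in TBM. In 1192 TBM cells with at least 5 UMIs of the B cell gene Cd79a (median 1990 UMIs), a set chosen after the counts were seen, the median was 5 UMIs for S100a8, 2 for Camp, 1 for Ngp and 0 for Fcnb and Wfdc21. In TBM neutrophil progenitors (median 17491.5 UMIs) the medians of S100a8 (356 UMIs), Fcnb (17.5) and Wfdc21 (25.5) were far above these. The medians of Camp (20 UMIs) and Ngp (13) are not read as expression at that difference in depth. The upper quartile of Camp was 464 UMIs and the highest count 1749.

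Transcripts of the early granule proteins differed less between the sorts. Elane was at 19204 CPM in TBM neutrophil progenitors and 13899.8 CPM in LK neutrophil progenitors (0.47 [0.44 to 0.49]), Ms4a3 at 2121 CPM in TBM neutrophil progenitors and 1749 CPM in LK neutrophil progenitors (0.28 [0.21 to 0.34]) and Prtn3 at 6831 CPM in TBM neutrophil progenitors and 5024 CPM in LK neutrophil progenitors (0.44 [0.41 to 0.48]), while Mpo was at 9473 CPM in TBM neutrophil progenitors and 13701 CPM in LK neutrophil progenitors (-0.53 [-0.56 to -0.50]) and Ctsg at 4250.4 CPM in TBM neutrophil progenitors and 6113 CPM in LK neutrophil progenitors (-0.52 [-0.57 to -0.48]). Cebpe was at 606 CPM in TBM neutrophil progenitors and 235 CPM in LK neutrophil progenitors (1.36 [1.24 to 1.49]) and Pglyrp1 at 1708 CPM in TBM neutrophil progenitors and 275 CPM in LK neutrophil progenitors (2.64 [2.55 to 2.72]). Cd34 was at 27.6 CPM in TBM neutrophil progenitors and 175 CPM in LK neutrophil progenitors (-2.66 [-3.26 to -2.13]), Cpa3 at 23.6 CPM in TBM neutrophil progenitors and 212 CPM in LK neutrophil progenitors (-3.17 [-3.81 to -2.59]) and Irf8 at 21.7 CPM in TBM neutrophil progenitors and 86.3 CPM in LK neutrophil progenitors (-1.99 [-2.67 to -1.39]). Of 19 nucleolus and ribosome assembly genes 12 were at least 2-fold lower in TBM (median -1.12), Npm1 at 888 CPM in TBM neutrophil progenitors and 1969 CPM in LK neutrophil progenitors (-1.15 [-1.25 to -1.05]), and of 13 immediate early genes 11 were (median -1.82). G2/M genes were higher in TBM, 6 of 25 at least 2-fold (median 0.58).

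The 7 LSK cells had counts of Mpo, Ctsg and Ms4a3 within the range of the LK neutrophil progenitors. The Elane counts of these 7 cells were also within it, with the lower end fixed by the rule. Their lowest, median and highest counts were 57, 246 and 511 UMIs for Elane, 179, 318 and 475 for Mpo, 55, 117 and 239 for Ctsg and 11, 31 and 44 for Ms4a3. S100a8 and Camp had 0 UMIs in them, and Cd34 stood at 293 CPM, above 175 CPM in LK neutrophil progenitors. No further comparison was made with 7 cells.

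**Figure D5:**
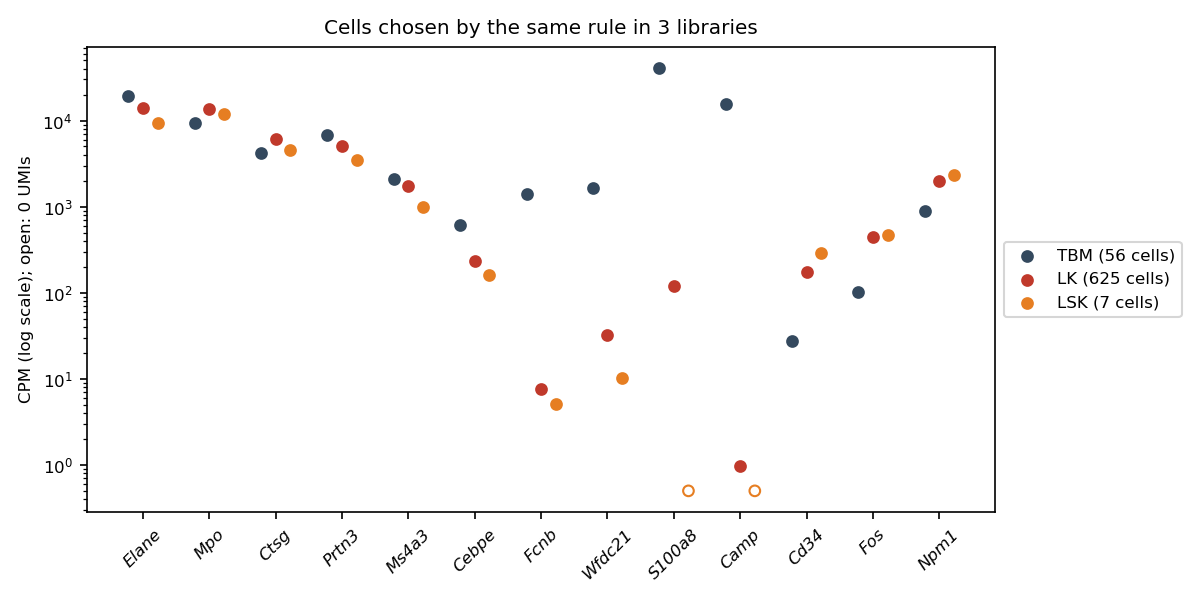
Level of 13 genes (y axis, CPM over summed cells, log scale) in cells chosen by the same rule in TBM (56 cells), LK (625 cells) and LSK (7 cells), 1 library each, with open circles for 0 UMIs. S100a8 and Camp are highest in TBM cells, at 40647 and 15724 CPM, and Cd34 is lowest there, at 27.6 CPM.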

How the data were processed

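The deposited matrices, 1 per library, give whole UMI counts for each gene in each barcode, made with Cell Ranger 4.0.0 on mm10 per the submitters' processing notes. The annotation release is not given in the sources used here. Cells with at least 200 genes and at most 10% mitochondrial UMIs were kept. The authors' counts were summed over each set of cells and scaled to CPM of all UMIs, with exact Poisson intervals for levels, exact conditional binomial intervals (95%) for ratios and Clopper-Pearson intervals for shares. Free RNA was not subtracted. Genes with at least 20 UMIs over both sets were compared, genes under 3 counts entered list medians at 3 counts (at a ratio of 0 where that turned the sign or both sets had 3 or fewer), and cells were thinned to 5000 UMIs (seed 1) where shares or cycle genes were compared. Doublets were called with Scrublet in scanpy 1.11.5 and kept; the scripts used Python 3.11.15, numpy 2.4.6, scipy 1.17.1 and pandas 2.3.3, and were tested on simulated data.

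The cells, gene lists and comparisons were chosen with earlier results of these data known. Genes named in the text were the 12 most extreme ratios each way (from 200 UMIs up, without the rule, mitochondrial, ribosomal protein and antigen receptor genes), any gene of the granule, transcription factor, receptor and adhesion lists, up to 4 genes of at least 2-fold and the 2 most abundant of each other list, and the 10 highest and 10 lowest correlations with Elane. Sdf2l1, Top2a, Mki67, Gata2, Mcpt8, Hdc, Prss34, Ppbp, Ly6d and the genes of the Elane-share parts and of TBM outside these lists were named after their values were seen. Some genes that these rules name are not reported here. Alternatives covered the limits of the rule, scaling, gene minimum, weighting, the Scrublet calls, mitochondrial limit and depth. The alternative without the Scrublet calls removed only 3 cells, so the effect of doublets was not assessed.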

Additional observations from a re-analysis of the deposited data

How the results depend on the processing

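Of 14 alternatives, 13 were planned and 1, leaving out the 10% of neutrophil progenitors with the most UMIs and other cells as deep, was added after the data were seen. Of the 98 named genes at least 2-fold apart, 79 stayed so under every alternative that gave them a value, and 1319 of 1348 such values were past 2-fold. Prg2 (-0.73) and Prg3 (-0.021) reversed with the monocyte genes at 0 UMIs, which left 188 cells. The share of LK cells was 19.9% with at least 25 and 15.4% with at least 100 Elane UMIs, 5.43% with monocyte genes at 0 UMIs and 23.1% with under 10. Genes at least 2-fold higher numbered 258, or 474 with a minimum of 1 UMI and 110 with 200, and lower ones 1331, or 429 with a minimum of 200. The primary granule median (1.25) was 1.22 and 1.26 with at least 25 and 100 Elane UMIs, 1.26 with Elane at 0.4% of UMIs, 1.06 and 1.40 with monocyte genes at 0 and under 10, 1.42 with size factors, 1.29 with totals lacking granule and rule genes, 1.46 with equal weight for each cell, 1.19 and 1.16 with minimums of 1 and 200 UMIs, 1.38 at 5000 UMIs and 1.31 without the deepest cells. The secondary granule median (0.60) was 2.0 with a minimum of 200 UMIs, over 7 in place of 13 genes, and 0.42 to 1.26 under the others. The monocyte list median (-0.86) ran from -1.23 to -0.67 and the stem list median (-2.12) from -2.77 to -1.76, within the counting interval of the list's middle genes. No paired analysis was possible because each sort is 1 library. Depth limits how precisely genes with few UMIs are measured, such as Camp and Dntt in LK neutrophil progenitors. These cells were deeper than other LK cells, with a median of 19593 against 11625 UMIs.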
